A study of Mus musculus with 6 samples.

Results

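The genes described here encode Tob adaptors and subunits of the CCR4-NOT complex, the deadenylation machinery that the germ cell protein NANOS2 recruits to RNA. The genes *Cnot2*, *Cnot3*, *Cnot4*, *Cnot6*, *Cnot6l*, *Cnot7*, *Cnot8*, *Cnot10*, *Tob1* and *Tob2* were chosen by name, and their array probes were found through the RefSeq accession of each probe's design. They are 10 of the 16535 genes that the array's 41174 probes could be matched to, and 21 probes read them. No probe was matched here to *Cnot1*, the scaffold of the complex, which was not analysed here.

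Male gonads of E14.5 mouse embryos had been profiled on 6 whole-genome arrays with 1 dye, 2 for each of 3 genotypes, from 0.20 µg of total RNA each. Nanos2+/- gonads kept a wild-type *Nanos2* allele beside a lacZ knock-in null allele, and Nanos2-/- gonads had none. Nanos2-/-_Tg+ gonads were also Nanos2-/- but carried a transgene for FLAG-tagged NANOS2-ΔN10, driven by the *Nanos2* enhancer in germ cells. This protein lacks the N-terminal residues through which NANOS2 binds CNOT1. All 3 genotypes were on a mixed ICR and N2 background, and the study's methods call the 2 datasets of each genotype independent. Neither they nor the labels say whether these came from separate animals, so the tests measure the spread between arrays, which may be technical. The design asks whether the messages of the deadenylation machinery itself differ when NANOS2 is missing, or when it is replaced by a form that cannot reach the complex.

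Messenger RNAs are protected by a poly(A) tail, and its shortening by deadenylases is commonly the step that starts their decay. In the CCR4-NOT complex CNOT1 is the scaffold, CNOT6 or CNOT6L and CNOT7 or CNOT8 are the deadenylases, CNOT2 and CNOT3 form the module that gives the NOT part its name, and CNOT10 belongs to an N-terminal module with CNOT11. CNOT4 is a RING-type ubiquitin ligase tied to the complex, and TOB1 and TOB2 bridge CNOT7 or CNOT8 to the cytoplasmic poly(A)-binding protein. RNA-binding proteins such as NANOS2, which acts in male germ cells of the fetal gonad, bring the complex to chosen messages.

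The catalytic subunits come as paralogous pairs, so the first bases of their coding regions are shown to let the members of each pair be compared. The letters are the gene-specific part of the forward oligos that the study used to clone each subunit, 5′ to 3′, with the start codon in capitals.
Cnot6: ATGcccaaagaaaagtac
Cnot6l: ATGagactaatagggatg
Cnot7: ATGccagcagcaaccgta
Cnot8: ATGcctgcggcacttgta
The bases were compared position by position from the start codon, without alignment. *Cnot7* and *Cnot8* were identical at 13 of these 18 bases, and *Cnot6* and *Cnot6l* at 6 of 18. The *Cnot6l* oligo ends in a further ATG, and a shift between the starts of *Cnot6* and *Cnot6l* was not checked. The counts therefore do not measure how alike the genes of a pair are. The sequences of the array probes were not used here, so hybridisation of one paralog to the probe of the other was not tested.

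Values are log2 of the background-subtracted signal after each array was scaled to a common median, and a difference of 1 on this scale is a 2-fold change. *Nanos2* itself followed the labels, with 9.42 and 10.78 in Nanos2+/-, no signal well above background in Nanos2-/- and 13.28 and 14.25 in Nanos2-/-_Tg+. Relative to Nanos2+/-, the Nanos2-/- level was lower by a factor of 89.7 (limma adjusted p = 0.00198). Nanos2-/-_Tg+ exceeded Nanos2-/- by a factor of 1139 (adjusted p = 0.000451). These factors set the mean of the bright genotype against the lowest signal that counted as well above background on the dim arrays. A higher limit would give smaller factors. The adjusted p come from the fitted values, which in Nanos2-/- were at the floor of 5 on the scaled signal. The part of the *Nanos2* message that the probe reads was not checked. All 6 germ cell markers, 5 of 5 Sertoli, 4 of 4 Leydig and 4 of 4 Y-linked markers on the array were well above background on all 6 arrays, whereas of 3 ovarian somatic markers *Foxl2* was well above background on 0 arrays and *Wnt4* and *Fst* on all 6. Slide 1 held the Nanos2+/- arrays, and slide 2 the 4 arrays of the genotypes without wild-type NANOS2. Genotype and slide therefore cannot be told apart in the comparisons with Nanos2+/-, while Nanos2-/-_Tg+ and Nanos2-/- shared a slide.

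All 21 probes of the 10 genes gave a signal well above background on all 6 arrays, in each of the 3 genotypes. None of them passed the test in any comparison, at a Benjamini-Hochberg adjusted p below 0.05 over 26711 probes with at least a 2-fold change. The call rate over all tested probes was 0.0674% for Nanos2-/- against Nanos2+/-, 0.105% for Nanos2-/-_Tg+ against Nanos2+/- and 0.0187% for Nanos2-/-_Tg+ against Nanos2-/-, so a count of 0 among 21 lies near the background. The lowest adjusted p among the 21 probes was 0.308, 0.168 and 1 in these comparisons. At an unadjusted limma p below 0.05 there were 3, 3 and 0 of 21 probes, where the whole table had 9.08%, 11.5% and 2.74%. The 3 probes were the same in both comparisons, which share the Nanos2+/- arrays: A_52_P487127 of *Cnot3*, A_52_P139 of *Cnot4* and A_52_P301103 of *Tob2*, all lower. The methods' t-test with its 2-fold limit called 0 of 21 in every comparison, with 2, 3 and 0 at an unadjusted p below 0.05 and 0 after Benjamini-Hochberg adjustment.

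The size of the differences in whole-gonad RNA was bounded for most members. The 95% interval lay within a 2-fold change either way for 20, 18 and 21 of the 21 probes, against 80.2%, 77.5% and 86.2% of all tested probes. Standard errors of the differences ran from 0.18 to 0.24 on the log2 scale. With this scaling no member differed by 2-fold in any comparison, as did 2.61%, 3.3% and 0.996% of all probes. The median difference of the 21 probes was -0.04, 0.04 and -0.03, beside -0.04, -0.01 and 0.03 for all tested probes. Their range was -0.70 to 0.44, -0.85 to 0.44 and -0.35 to 0.37. In gonads as whole organs, fewer cells of a type and less RNA per cell cannot be told apart. The intervals do not bound a difference confined to the germ cells.

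**Figure D1:**
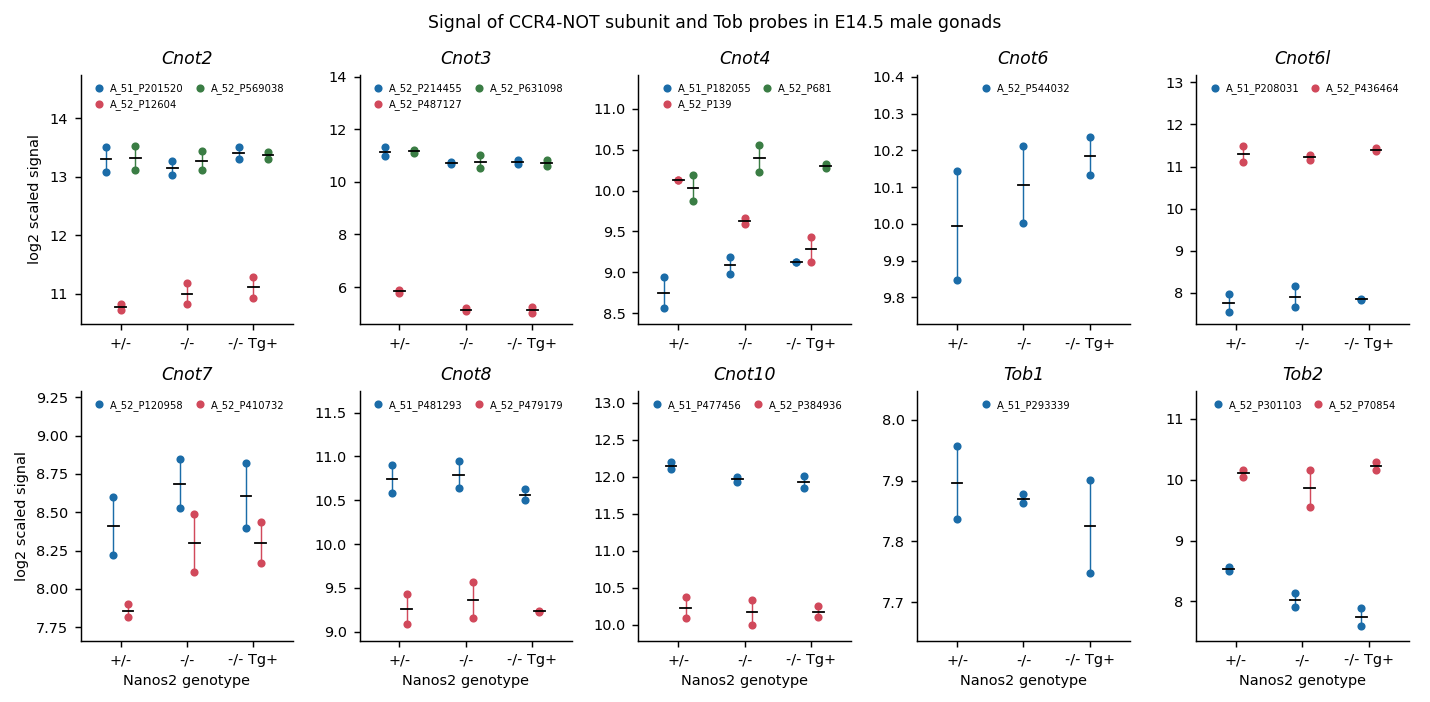
Signal of the 21 probes on each array, as log2 scaled signal (vertical axis, a separate range for each gene) for the 3 genotypes. Dots are arrays, colours are probes, lines join the 2 arrays of a genotype and black bars are their means. With this scaling the 3 *Cnot3* probes were lower on every Nanos2-/- and Nanos2-/-_Tg+ array than on both Nanos2+/- arrays (2 of the 3 changed sign with normexp correction). Over all tested probes, 21.7% and 20.3% were lower without overlap in Nanos2-/- and Nanos2-/-_Tg+ against Nanos2+/-. The *Cnot4* probes went opposite ways.

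Of the NOT module, *Cnot3* had 3 probes, each with values in Nanos2-/- and Nanos2-/-_Tg+ that did not overlap those in Nanos2+/-, all lower. With normexp background correction 2 of the 3 changed sign. Over all tested probes, 21.7% and 20.3% were lower without overlap in these comparisons. Both comparisons use the same Nanos2+/- arrays, on their own slide, so they are not independent of each other. A_52_P214455 read 10.97 and 11.33 in Nanos2+/-, 10.68 and 10.77 in Nanos2-/-, and 10.67 and 10.82 in Nanos2-/-_Tg+. A_52_P631098 read 11.22 and 11.11, then 11.01 and 10.53, then 10.82 and 10.62 in the same order. The dim probe A_52_P487127 read 5.79 and 5.88, then 5.19 and 5.09, then 5.0 and 5.23. For each of these probes the 4 arrays without wild-type NANOS2 lay below both Nanos2+/- arrays. In Nanos2-/- the differences from Nanos2+/- were -0.42 ± 0.20 (SE, n = 2 against 2), -0.40 ± 0.22 and -0.70 ± 0.19 for the probes in this order, with limma adjusted p of 0.604, 0.666 and 0.308. In Nanos2-/-_Tg+ they were -0.40, -0.45 and -0.73, with adjusted p of 0.502, 0.498 and 0.201. Between Nanos2-/-_Tg+ and Nanos2-/- the same probes differed by 0.02, -0.05 and -0.03, less than the spread between arrays. With normexp background correction the 2 bright *Cnot3* probes stood at 0.50 and 0.55 in Nanos2-/- against Nanos2+/- and at 0.46 and 0.44 in Nanos2-/-_Tg+ against Nanos2+/-. That correction also moved the median of all probes, to 0.56 and 0.52, and the bright probes stood below it in both comparisons. A_52_P487127 stayed at -0.46 in both.

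*Cnot2*, the partner of *Cnot3* in that module, did not share its pattern. A_51_P201520 averaged 13.30 ± 0.31 (SD, n = 2) in Nanos2+/-, 13.16 ± 0.17 in Nanos2-/- and 13.41 ± 0.14 in Nanos2-/-_Tg+. A_52_P569038 averaged 13.32, 13.28 and 13.37. A_52_P12604, designed on another transcript accession, read 10.82 and 11.18 in Nanos2-/-. Its Nanos2-/-_Tg+ arrays (10.94 and 11.29) lay above the Nanos2+/- arrays (10.72 and 10.83), a difference of 0.34 ± 0.22 (SE) with a limma adjusted p of 0.619. The *Cnot2* and *Cnot3* values were not tested against each other.

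Among the deadenylases, both probes of *Cnot7* had higher means in Nanos2-/- and in Nanos2-/-_Tg+ than in Nanos2+/-, by 0.20 to 0.44, and neither passed the test. A_52_P410732 read 7.81 and 7.90 in Nanos2+/-, 8.11 and 8.49 in Nanos2-/-, and 8.17 and 8.43 in Nanos2-/-_Tg+. A_52_P120958 read 8.22 and 8.60, then 8.52 and 8.84, then 8.40 and 8.82. The first probe had no overlap with Nanos2+/- and the second overlapped it. The differences of A_52_P410732 were 0.44 ± 0.21 (SE) in both comparisons with Nanos2+/-, with limma adjusted p of 0.605 and 0.485. Those of A_52_P120958 were 0.27 ± 0.24 and 0.20 ± 0.24, with adjusted p of 0.805 and 0.825.

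The values of its paralog *Cnot8* lay closer together. A_51_P481293 read 10.58 and 10.90 in Nanos2+/-, 10.64 and 10.94 in Nanos2-/-, and 10.62 and 10.51 in Nanos2-/-_Tg+. A_52_P479179 averaged 9.26, 9.36 and 9.23. The differences from Nanos2+/- lay between -0.18 and 0.10, and the 95% intervals between -0.67 and 0.61. The Nanos2-/-_Tg+ arrays of A_51_P481293 lay just below both Nanos2-/- arrays, at -0.22 ± 0.21 (SE, limma adjusted p = 1).

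The CCR4-type nucleases varied little. *Cnot6* was read by 1 probe, with 10.14 and 9.85 in Nanos2+/-, 10.21 and 10.002 in Nanos2-/-, and 10.13 and 10.24 in Nanos2-/-_Tg+. Its differences were 0.11 (95% interval -0.35 to 0.57) and 0.19 (-0.27 to 0.65) from Nanos2+/-, and 0.08 between the genotypes without wild-type NANOS2. The bright *Cnot6l* probe A_52_P436464 averaged 11.29, 11.22 and 11.40 and the dim probe A_51_P208031 averaged 7.76, 7.91 and 7.85. Their accessions differ, and their differences ran from -0.07 to 0.18 over the 3 comparisons, with the 2 probes on opposite sides of 0 in Nanos2-/- against Nanos2+/-.

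*Cnot10*, of the N-terminal module, gave small differences too. A_51_P477456 read 12.20 and 12.10 in Nanos2+/-, 11.92 and 12.00 in Nanos2-/-, and 12.01 and 11.84 in Nanos2-/-_Tg+, so the arrays without wild-type NANOS2 lay below both others. The differences were -0.19 ± 0.18 (SE) and -0.22 ± 0.18, with limma adjusted p of 0.826 and 0.713. A_52_P384936 averaged 10.23, 10.17 and 10.18, and its groups overlapped. With normexp background correction A_51_P477456 stood at 0.78 and 0.69, above the median of all probes.

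*Cnot4*, the ubiquitin ligase, was the member whose probes disagreed most in the comparisons with Nanos2+/-. A_52_P139 read 10.13 on both Nanos2+/- arrays, 9.67 and 9.60 in Nanos2-/-, and 9.43 and 9.13 in Nanos2-/-_Tg+. A_52_P681 read 9.88 and 10.19, then 10.23 and 10.55, then 10.28 and 10.33. A_51_P182055 read 8.56 and 8.94, then 8.98 and 9.19, then 9.12 and 9.13. The first probe was lower on every array without wild-type NANOS2 and the other 2 were higher, although all 3 were designed on the same accession. In Nanos2-/- the differences were -0.50, 0.36 and 0.33, and in Nanos2-/-_Tg+ -0.85, 0.27 and 0.37. The difference of A_52_P139 in Nanos2-/-_Tg+, 1.8-fold lower, had the lowest adjusted p of the 21 probes (limma adjusted p = 0.168, 95% interval -1.29 to -0.40), and 95.02% of all tested probes differed by less in that comparison. With normexp background correction it was 0.36 in Nanos2-/- and -0.00473 in Nanos2-/-_Tg+, both below the median of all probes under that correction. The probes of *Cnot4* spread over 0.86 and 1.22 on the log2 scale in these comparisons, so no direction is given for the gene.

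The adaptor *Tob1* was the flattest member. Its probe read 7.84 and 7.96 in Nanos2+/-, 7.88 and 7.86 in Nanos2-/-, and 7.75 and 7.90 in Nanos2-/-_Tg+. The groups overlapped in every comparison, and the differences of -0.03, -0.07 and -0.05 had 95% intervals of -0.45 to 0.39, -0.49 to 0.35 and -0.47 to 0.37.

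*Tob2* had probes that disagreed. A_52_P301103 read 8.56 and 8.50 in Nanos2+/-, 8.14 and 7.91 in Nanos2-/-, and 7.88 and 7.59 in Nanos2-/-_Tg+. A_52_P70854 read 10.05 and 10.15, then 10.16 and 9.55, then 10.29 and 10.17. The first probe differed by -0.51 ± 0.20 (SE, limma adjusted p = 0.504) in Nanos2-/- and by -0.79 ± 0.20 (adjusted p = 0.194) in Nanos2-/-_Tg+, both from Nanos2+/-. The second differed by -0.24 and 0.13, and the Nanos2-/-_Tg+ arrays lay above both Nanos2+/- arrays. Both *Tob2* probes were designed on the same accession, and no direction is given for the gene. With normexp background correction A_52_P301103 stood at 0.13 and -0.13, below the medians of all probes under that correction (0.56 and 0.52).

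**Figure D2:**
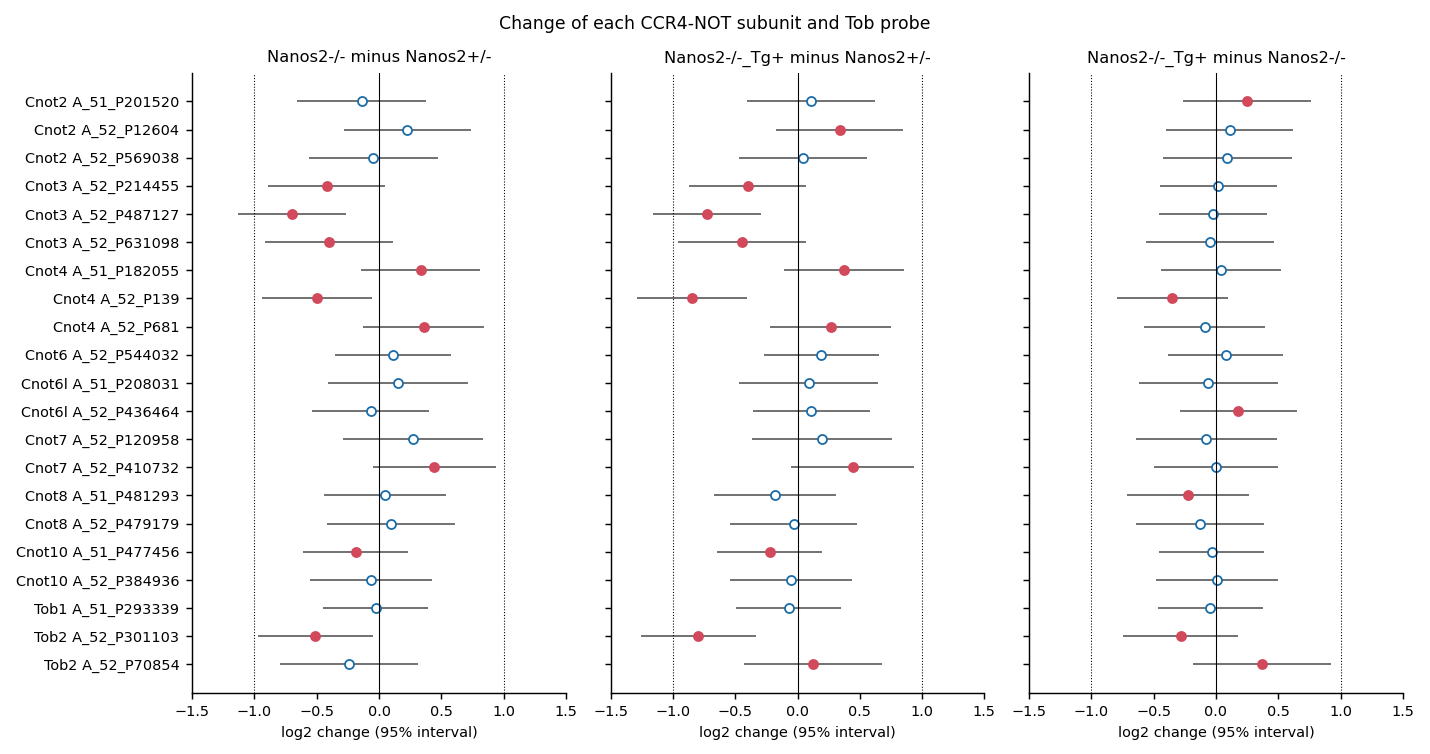
Difference of each of the 21 probes in the 3 comparisons (horizontal axis, log2, with the 95% interval of the limma fit). Filled red points have arrays of the 2 genotypes that do not overlap, open blue points overlap, and dotted lines mark a 2-fold change. No point reached a dotted line, and the intervals of 1, 3 and 0 probes crossed one.

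Arrays of the compared genotypes did not overlap for 9 of 21 probes in Nanos2-/- against Nanos2+/-, 11 of 21 in Nanos2-/-_Tg+ against Nanos2+/- and 6 of 21 in Nanos2-/-_Tg+ against Nanos2-/-. Over all tested probes this held for 36%, 38.9% and 31.4%. Of the members, 6, 6 and 3 were lower and 3, 5 and 3 higher. The lower direction held for 21.7%, 20.3% and 11.4% of all probes and the higher one for 14.3%, 18.6% and 20%. With 2 arrays against 2, an exact rank test cannot give a two-sided p under 0.333.

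The comparison of Nanos2-/-_Tg+ with Nanos2-/- lies within a slide and addresses the transgene. Marker sums of other cell types also separated these genotypes. The erythroid sum was 12.76 to 12.98 in Nanos2-/- and 13.10 to 13.58 in Nanos2-/-_Tg+, with *Alas2* and *Slc4a1* higher without overlap and *Hba-x* and *Hbb-bh1* overlapping. The ovarian somatic sum was 11.06 to 11.17 and 11.21 to 11.33, with *Wnt4* its brightest marker, while *Fst* had a lower mean in Nanos2-/-_Tg+ (5.59) than in Nanos2-/- (5.97). Their part in the values of the 21 probes was not tested. The 21 differences between Nanos2-/-_Tg+ and Nanos2-/- had a median size of 0.0779, against 0.127 for all tested probes. The 2 largest were 0.37 for A_52_P70854 of *Tob2* and -0.35 for A_52_P139 of *Cnot4*, with 95% intervals of -0.19 to 0.92 and -0.79 to 0.09. Every member probe had an adjusted p of 1 in limma, and 0 passed at an unadjusted p below 0.05.

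The median size of the members' differences was 0.227, 0.198 and 0.0779 in the 3 comparisons. These are differences between means of 2 arrays. The spread between the 2 arrays of a genotype is a difference of single arrays, which varies more, so the sizes are not directly comparable. The median absolute difference between replicates over the 21 probes was 0.296 in Nanos2+/-, 0.31 in Nanos2-/- and 0.149 in Nanos2-/-_Tg+, and over all tested probes 0.332, 0.198 and 0.183. Replicate 2 was higher in 16, 14 and 15 of the 21 probes. The median of replicate 2 minus replicate 1 was 0.12, 0.21 and 0.08 for the members and 0.23, 0.11 and 0.05 for all tested probes. Summed macrophage markers were lower in Nanos2+/- (11.76 to 11.82) than in Nanos2-/- (11.92 to 11.97) and Nanos2-/-_Tg+ (11.94 to 12.05), with 3 of 3 markers on the array well above background. That sum followed its brightest marker *Lyz2*, whereas *Csf1r* averaged 8.76 in Nanos2+/-, 8.46 in Nanos2-/- and 8.58 in Nanos2-/-_Tg+. *Adgre1* in Nanos2-/- overlapped Nanos2+/- (8.29 and 8.26), and in Nanos2-/-_Tg+ it was slightly higher (8.34 and 8.36). Summed endothelial markers were higher in Nanos2+/- (12.47 to 12.48) than in Nanos2-/- (12.33 to 12.42), and Nanos2-/-_Tg+ (12.38 to 12.60) overlapped both. That sum followed the bright *Cdh5* and *Kdr* probes, whereas *Pecam1* (8.29 and 8.37 in Nanos2+/-, 8.85 and 9.12 in Nanos2-/-) and the mean of *Tek* (7.93 and 8.16) differed the other way. The ovarian somatic sum was also higher in Nanos2+/- (11.20 to 11.63) than in Nanos2-/- and overlapped Nanos2-/-_Tg+. The part of these sums in the values above was not tested. The germ cell sums overlapped, at 16.56 to 17.08, 16.57 to 16.92 and 16.73 to 17.01, with *Dppa3* the brightest marker. *Dnd1* was lower without overlap in both genotypes without wild-type NANOS2. *Mael* was lower in Nanos2-/- (14.05 and 14.20) than in Nanos2+/- (14.75 and 14.45) and overlapped in Nanos2-/-_Tg+. The remaining germ cell markers overlapped Nanos2+/-, and whether germ cell content was equal was not tested.

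The rest of the deadenylation pathway was read from lists of other subunits, BTG proteins, other deadenylases, poly(A)-binding proteins and RNA-binding recruiters of CCR4-NOT. Of 38 genes listed, 34 were on the array and 33 were tested, by the brightest probe of each gene. By that probe 0 of 33 were called in each comparison, where all tested probes had 0.0674%, 0.105% and 0.0187%. By the same probe, an unadjusted limma p below 0.05 was reached by 4, 3 and 0 of 33, beside 9.08%, 11.5% and 2.74% of all tested probes. Of the subunits, *Cnot9*, a subunit bound to CNOT1, differed by 0.27 and 0.14 from Nanos2+/- and *Cnot11*, the partner of *Cnot10*, by -0.07 and -0.10. In the BTG family, relatives of the Tob proteins, *Btg1* differed by 0.15 and 0.30 and *Btg3* by 0.19 and 0.29. Between Nanos2-/-_Tg+ and Nanos2-/-, *Btg2* differed by 0.22 by its brightest probe. Its dimmer probes A_52_P35217 and A_52_P925197 differed by 0.68 and 0.69 there without overlap. Their unadjusted limma p were 0.045 and 0.0433, and neither was called. Of the 3 tested BTG genes 0 were called.

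Among the other deadenylases, *Pde12*, a mitochondrial nuclease, had the lowest p, with 0.58 ± 0.24 (SE) in Nanos2-/- and 0.72 ± 0.24 in Nanos2-/-_Tg+ (limma adjusted p = 0.53 and 0.303). *Angel2* differed by -0.32 in Nanos2-/-, with its dimmer probes at -0.16 and 0.29. *Toe1*, a nuclear deadenylase, differed by 0.39 in Nanos2-/-_Tg+. Of the poly(A)-binding proteins, the cytoplasmic *Pabpc1* differed by -0.32 and -0.21 and the nuclear *Pabpn1* by -0.20 and -0.25. Between Nanos2-/-_Tg+ and Nanos2-/- the lowest p by the brightest probe in these lists belonged to *Pan3* (0.16), *Noct* (0.13), *Paip1* (0.27) and *Pabpc1* (0.11), each with an adjusted p of 1. The dimmer *Paip1* probes A_51_P470989 and A_52_P212284 went the other way, at -0.63 and -0.08.

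Of the recruiters, *Dnd1*, a germ cell RNA-binding protein, read 13.54 and 13.76 in Nanos2+/-, 12.75 and 12.92 in Nanos2-/-, and 12.88 and 12.79 in Nanos2-/-_Tg+. Its differences of -0.81 ± 0.19 (SE) and -0.82 ± 0.19 had limma adjusted p of 0.258 and 0.176. *Zfp36l2*, which binds AU-rich elements, differed by -0.60 in Nanos2-/- (adjusted p = 0.402) and by 0.25 between Nanos2-/-_Tg+ and Nanos2-/-, and *Samd4* by -0.33 in the latter. *Nanos1* was called by its dimmer probe. That probe was 2.13-fold higher in Nanos2-/- and 2.11-fold higher in Nanos2-/-_Tg+ than a limit set for Nanos2+/-. The limit was the lowest signal that counted as well above background on the Nanos2+/- arrays, and a higher limit gives smaller factors. In Nanos2+/- that probe was not well above background, so it was kept only through the genotypes where it was higher. The limma adjusted p of 0.0468 and 0.0361 belong to fitted differences of 2.27 and 2.25, not to these factors. Those differences rest on Nanos2+/- values of 2.78 and 2.32, the last at the floor of 5 on the scaled signal. The call held under 8 and 9 of 20 alternatives, and without Nanos2+/- replicate 1 the adjusted p was 0.18 and 0.152. With a floor of 20 the differences were 0.50 and 0.48 and the call was lost. With normexp correction they were -0.26 and -0.17, where the medians of all probes were 0.56 and 0.52. By its brighter probe *Nanos1* differed by 0.77 and 0.98 and was not called.

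**Figure D3:**
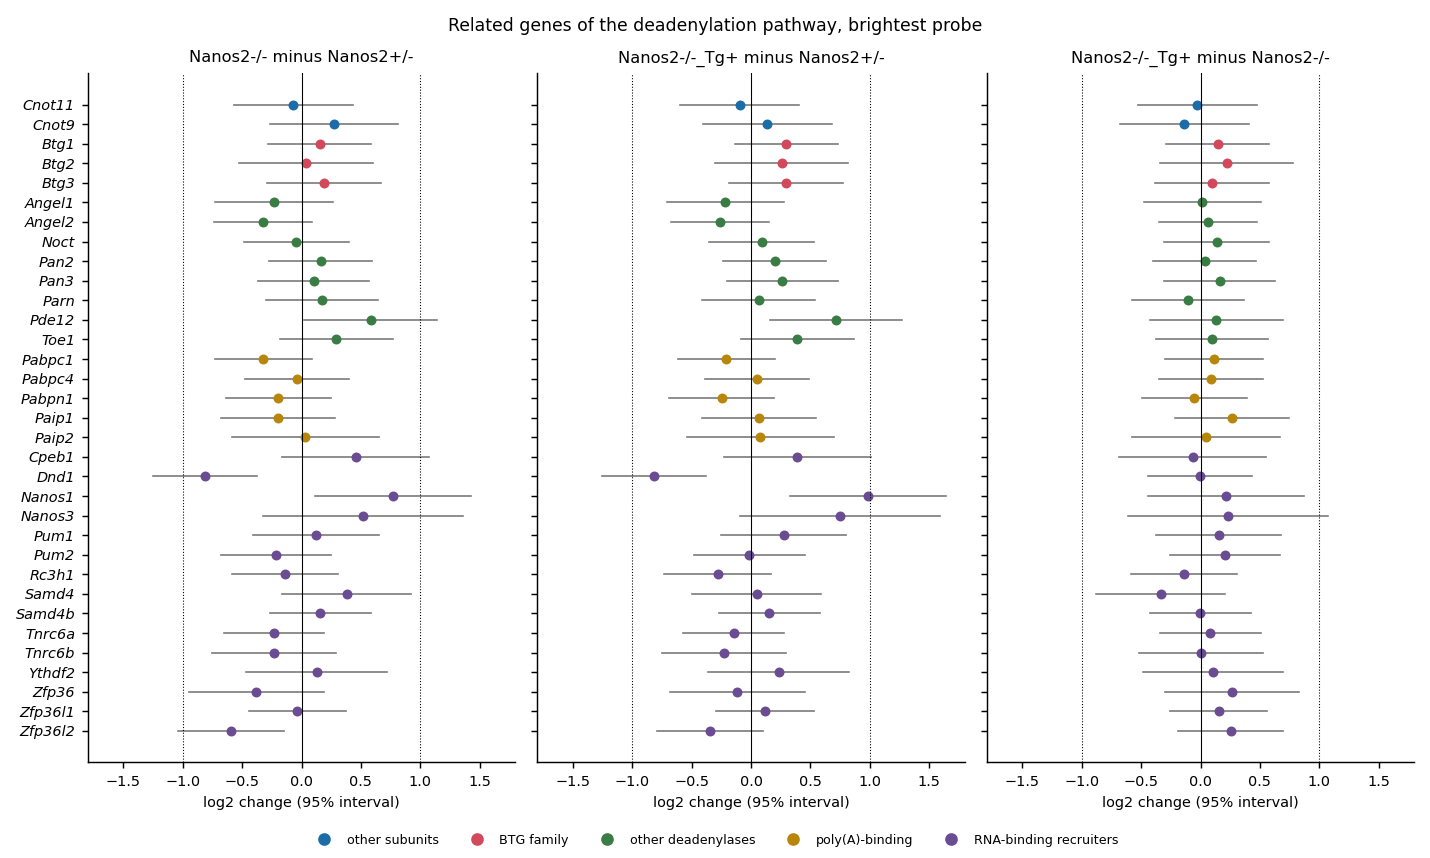
Difference of the 33 tested genes of the related lists, by the brightest probe of each gene (horizontal axis, log2, with the 95% limma interval), coloured by list, with dotted lines at a 2-fold change. None was called, and *Dnd1* and *Nanos1* lay farthest from 0 in the comparisons with Nanos2+/-.

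The related genes with values most like the mean of the 21 probes over the 6 arrays, each centred on its own mean, were *Pabpc4*, a poly(A)-binding protein, *Tnrc6a*, a microRNA pathway adaptor, and *Noct*, a relative of the CCR4-type nucleases. Their root mean square distances to the mean profile were 0.0621, 0.0801 and 0.0811 on the log2 scale. That mean profile ran from -0.07 to 0.12, so likeness here mostly means a flat profile.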

How the data were processed

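Each deposited scanner file holds the intensity of 45018 spots, 1639 of them controls, after background subtraction and detrending by the authors' Agilent Feature Extraction software (9.5 in the submitters' processing notes). According to the methods, a floor of 5, scaling to the 50th percentile and per-gene centring on the median followed. Here outlier spots were dropped, arrays were scaled to a common 50th percentile, values under 5 were raised to 5, and log2 values were averaged per probe. No spot was saturated. Between 64.1 and 66.7% of probes were well above background, and the number of arrays limits the precision. Probes that passed this flag on both arrays of a genotype were kept, and these 26711 were fitted with limma 3.58.1 (R 4.3.3, lmFit and eBayes, 4.55 prior degrees of freedom, 6 arrays, no replicate block) and called at an adjusted p below 0.05 and 2-fold. Genes were named through RefSeq accessions, which matched 23374 of 41174 probes. Named from the related lists were genes called, the 2 with the smallest p per list and comparison, and the 3 with the most alike profile. Members and lists were chosen with earlier results of these data known. Alternatives covered scaling, background correction, floor, filter, outliers, the value table, the test, the replicate block and each array left out. Figures were made with Python 3.11.15 and matplotlib 3.10.9.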

Additional observations from a re-analysis of the deposited data

How the results depend on the processing

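No member probe was called under any alternative, and the counts of related genes called stayed at 0 except through the other probes of a gene, where 1 gene, *Nanos1*, was called in Nanos2-/- and 1 in Nanos2-/-_Tg+ against Nanos2+/-. The *Nanos1* call was also lost with the array left out being Nanos2+/- replicate 2 (adjusted p of 0.0943 and 0.0907), Nanos2-/- replicate 2 (0.105 in Nanos2-/-) and Nanos2-/-_Tg+ replicate 1 (0.0674 in Nanos2-/-_Tg+), and with the block in Nanos2-/- (0.0512). Normexp background correction, run on the median signals because the files hold no mean signal, moved the members' median to 0.79 in Nanos2-/- and 0.69 in Nanos2-/-_Tg+ against Nanos2+/- while all tested probes had medians of 0.56 and 0.52, and the cause was not tested. With an array left out, the members' median ran from -0.114 to 0.0778 in Nanos2-/- against Nanos2+/-, from -0.118 to 0.139 in Nanos2-/-_Tg+ against Nanos2+/- and from -0.0721 to 0.0827 in Nanos2-/-_Tg+ against Nanos2-/-. The lowest value of the second range came without Nanos2+/- replicate 1, the highest of the first without Nanos2+/- replicate 2, and the highest of the third without Nanos2-/-_Tg+ replicate 1. Of 273 member differences per comparison under the other settings, 13, 7 and 11 changed sign, and with an array left out 15, 10 and 23 of 126. Against Nanos2+/-, most sign changes under the other settings came with normexp correction, which raised the median of all probes. With that correction A_52_P12604 of *Cnot2* (1.11 and 1.19) and A_52_P681 of *Cnot4* (1.16 and 1.03) exceeded 2-fold in Nanos2-/- and Nanos2-/-_Tg+. A_51_P201520 of *Cnot2* exceeded it in Nanos2-/-_Tg+ only (1.06). The number of member probes at an unadjusted p below 0.05 in Nanos2-/- against Nanos2+/- was 6 with scaling to the 75th percentile, 7 with quantile normalization and 0 without Nanos2-/- replicate 2, where all probes had 11.1, 11.8 and 5.15%. In Nanos2-/-_Tg+ against Nanos2+/- it was 6, 6 and 3, beside 14.7, 15.4 and 10.3%.

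The replicate numbers are shared across genotypes, but the labels do not say what they share, and each comparison has 2 pairs. Same-numbered arrays deviated together, with correlations over probes of 0.355, 0.313 and 0.259. With the replicate number as a block, 0 member probes were called, the counts at an unadjusted p below 0.05 were 6, 6 and 0 of 21, beside 14.9, 18.2 and 6.14% of all probes, and the lowest adjusted p was 0.152, 0.0779 (A_52_P139 of *Cnot4*) and 0.86. The block moved the calls over all probes from 18, 28 and 5 to 18, 145 and 4, whereas normexp correction and a floor of 20 gave 0 in each comparison and the methods' t-test with 2-fold 153, 234 and 40.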
